A study of Mus musculus with 14 samples.

Results

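The replication-dependent histone cluster genes were taken as all gene symbols that begin with Hist1h, Hist2h, Hist3h or Hist4h, which gave 69 members of 24984 genes listed in both count tables. They comprise 6 linker histone H1 genes, 19 H2A, 19 H2B, 12 H3 and 13 H4 genes. Of these, 55 lie in the Hist1 cluster on chromosome 13, 10 in Hist2 on chromosome 3, 3 in Hist3 on chromosome 11 and 1, Hist4h4, on chromosome 6. Hist1h2al and Hist3h2bb-ps are annotated as pseudogenes.

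Histones H2A, H2B, H3 and H4 form the protein core of the nucleosome, and H1 binds the DNA between nucleosomes. The cluster genes supply most of the histone protein needed to package new DNA in S phase. Their mRNAs mostly end in a conserved stem-loop in place of a polyadenylate tail. The stem-loop binding protein holds this hairpin, and the transcript is cut shortly after it. Some cluster genes are also known to make polyadenylated RNA, mainly in differentiated cells. The cluster genes also include testis types: Hist1h1t encodes the linker histone H1t, and Hist1h2aa and Hist1h2ba encode TH2A and TH2B, the forms of H2A and H2B that male germ cells use.

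The cells were c-KIT(+) differentiating spermatogonia, sorted by FACS from testes of C57BL/6J mice, and the experiments concern Cbx2, which encodes a chromodomain protein of Polycomb repressive complex PRC1. In the 23KRA experiment, 5 animals homozygous for Cbx2 23KRA, in which lysines and arginines of the CaPS domain are changed to alanine, were compared with 5 Cbx2 +/+ animals. In the deletion experiment, 2 Rosa26-CreERT2; Cbx2 Flox/Δ animals given tamoxifen (200 µL at 20 mg/mL, 3 injections) were compared with 2 Rosa26-CreERT2; Cbx2 Flox/+ animals given corn oil. All 4 animals of the deletion experiment therefore carried the recombinase gene and a floxed allele, the oil controls kept 1 Cbx2 + allele, and Rosa26 is active in most cell types, so the driver is not restricted to germ cells. The 23KRA animals were not treated, and the labels give no ages. Per the protocols, the 23KRA experiment used a kit for total RNA that keeps strand and removes ribosomal cDNA, and the deletion experiment an mRNA kit, although the labels' molecule field reads polyA RNA for all 14 libraries. Kit, PCR cycles, experiment, Cbx2 genotype, the Rosa26-CreERT2 driver and injection change together between the controls of the experiments and cannot be told apart.

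The libraries held 14562564 to 19814511 counts in the 23KRA experiment and 28169990 to 31166500 in the deletion experiment. Summed markers of differentiating spermatogonia (8 genes, among them Kit and Stra8) were close throughout, at 1496 to 1869 CPM (read counts after scaling libraries to equal size) in homozygous, 1668 to 1865 CPM in wild-type, 1762 to 1803 CPM in deleted and 1720 to 1728 CPM in oil control libraries. Markers of round and elongating spermatids were present as well, at 241 to 1118 CPM in homozygous, 293 to 1117 CPM in wild-type, 2689 to 3116 CPM in deleted and 3112 to 3421 CPM in oil control libraries. Spermatocyte markers summed to 1425 to 1986 CPM in homozygous and 1540 to 1938 CPM in wild-type libraries. In deleted libraries they summed to 2955 to 3272 CPM and in oil control libraries to 2806 to 2953 CPM. In bulk samples, fewer cells of a type and less RNA per cell cannot be told apart.

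The 3′ ends are shown here because the stem-loop is the feature that sets these mRNAs apart from polyadenylated ones. A histone stem-loop (6 base pairs closed by a 4-base loop, 16 bases, on the gene's strand) was found in the annotated 3′UTR of 46 members, and 8 members had an annotated 3′UTR without one. The models of the other 15 members, among them the pseudogenes Hist1h2al and Hist3h2bb-ps, hold no annotated 3′UTR, so no 3′ end could be read. Among the 8, the annotated 3′UTRs of Hist1h2af and Hist1h2ah are 1 and 2 bases long and could not hold a loop. Among other coding transcripts with a 3′UTR of at least 30 bases, 15 of 43689 (0.0343%) held such a sequence. The sequences below are from the GENCODE transcripts of GRCm38 (mm10), 5′ to 3′, with the stem-loop in capitals.
Hist3h2a (chr11:58955167-58955192, plus strand): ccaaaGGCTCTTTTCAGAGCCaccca
Hist1h1c (chr13:23739507-23739532, plus strand): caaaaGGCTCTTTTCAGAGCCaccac
Hist1h2bp (chr13:21787918-21787943, plus strand): acaaaGGCTCTTTTCAGAGCCaccca
Hist1h3b (chr13:23752815-23752840, plus strand): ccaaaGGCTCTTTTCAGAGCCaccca
Hist1h1t (chr13:23696520-23696545, plus strand): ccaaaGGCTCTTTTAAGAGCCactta
Hist1h4c (chr13:23698084-23698109, minus strand): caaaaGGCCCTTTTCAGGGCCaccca
Hist1h4j (chr13:21735432-21735457, plus strand): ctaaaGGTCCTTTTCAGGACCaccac
Hist1h4a (chr13:23760795-23760820, minus strand): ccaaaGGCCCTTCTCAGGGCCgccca
Hist2h4 (chr3:96262934-96262959, minus strand): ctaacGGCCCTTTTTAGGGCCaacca

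The stem divided the members by class. All 34 loops of H1, H2A, H2B and H3 members opened with GGCTCT, and all 12 loops of H4 members opened with GGCCCT or GGTCCT. The most frequent loop, shown for Hist3h2a, stood in 26 members of 4 classes (3 H1, 10 H2A, 8 H2B and 5 H3), and the one shown for Hist1h4c in 7 H4 members. The loop began 21 to 58 bases after the stop codon.

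Near-identity limits what can be read from single members. Of the 50-base words in a member's transcripts, a median of 53.0% occurred in no other member, and 15 members had under 20% such words. Exons of 25 members overlap those of another annotated gene, in 22 cases on the opposite strand. How the authors assigned reads that map to several places, and whether strand was used, is not given in the sources used here. Hist1h2ap, Hist1h2bq, Hist1h2br, Hist2h2aa1, Hist2h3c1 and Hist2h3c2 were listed at 0 counts in all 14 libraries, and each of these 6 shares its whole coding sequence with another member; 10 of the 69 members have such a partner. A level of 0 for these members, and the low summed level of H3, can therefore not be read as absence of RNA. Hist1h4m and Hist2h2aa2 were also at 0 in all 10 total RNA libraries. Hist2h4 was at 0 in all 4 mRNA libraries. Counts were above 0 in every library for 55 members in the 23KRA experiment and for 46 in the deletion experiment.

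The members took more than 1% of all counts with the total RNA kit and at most 0.0108% with the mRNA kit. The share was 1.23, 1.72, 1.54, 1.71 and 1.45% in the homozygous libraries and 1.07, 1.54, 1.32, 1.66 and 1.35% in the wild-type libraries. It was 0.00902 and 0.00945% in the deleted libraries and 0.0105 and 0.0108% in the oil controls. In the oil controls this rests on 2952 and 3371 member counts, with 95% Wilson intervals of 0.0101 to 0.0109% and 0.0105 to 0.0112% that cover counting error only. All 10 total RNA libraries lay above all 4 mRNA libraries.

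Scaled together by TMM factors, the summed level of all members was 15204 ± 2549 CPM in wild-type total RNA libraries (SD, n = 5) and 85.0 ± 1.54 CPM in oil control mRNA libraries (SD, n = 2), a 179-fold ratio. In the mutant libraries it was 16583 ± 2579 CPM in homozygous (SD, n = 5) and 76.1 ± 1.68 CPM in deleted libraries (SD, n = 2), a 218-fold ratio. Histone variants with mostly polyadenylated mRNAs served as a contrast, a list of 16 genes such as H2afz, H3f3a and H3f3b. Scaled within each experiment, their sum was 2262 to 2998 CPM in wild-type and 4047 to 4170 CPM in oil control libraries. The members' sum was thus 4.68, 5.28, 4.68, 5.71 and 4.73 times that of the variants in the wild-type libraries, against 0.0251 and 0.0265 times in the oil controls. The variant list is mixed. It holds H2afx, which also makes a stem-loop mRNA and was called higher with the total RNA kit. It also holds the spermatid genes H1fnt and Hils1, which were called lower. These ratios are therefore not set against polyadenylated mRNAs alone.

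**Figure D1:**
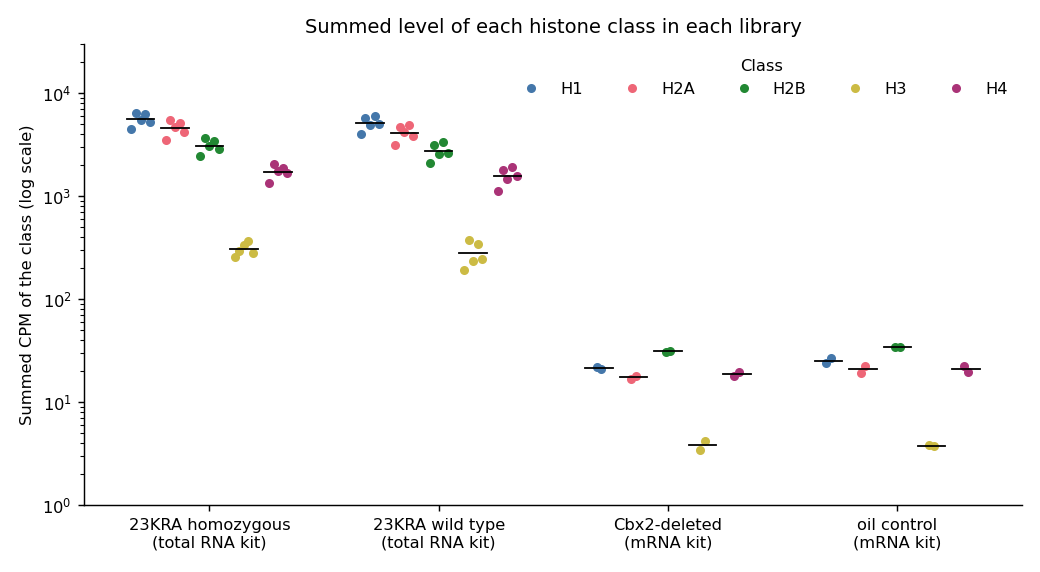
Summed CPM of each histone class in each of the 14 libraries, on a log axis, scaled within each experiment. Points are libraries and black bars group means; every total RNA library lies above every mRNA library in every class, with H3 lowest in all groups.

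The ratio between kits was not the same for all classes. H1 was 277-fold and H2A 269-fold higher in the wild-type total RNA libraries than in the oil controls, while H2B was 109-fold, H3 100.2-fold and H4 101-fold higher. In the mutant libraries the corresponding ratios were 343-fold for H1, 347-fold for H2A, 132-fold for H2B, 107-fold for H3 and 121-fold for H4. The make-up of the member counts differed accordingly. H1 made up 37.2 ± 0.69% of member counts in wild-type total RNA and 24.0 ± 1.36% in oil control libraries, and H2A 29.7 ± 0.89% and 19.8 ± 1.73%. H2B made up 19.9 ± 0.35% in wild-type total RNA and 32.7 ± 0.89% in oil control libraries, and H4 11.2 ± 0.46% and 20.0 ± 2.08% (SD, n = 5 and n = 2). H3 gave 1.98 ± 0.27% in wild-type and 3.58 ± 0.11% in oil control libraries. With 5 libraries against 2 these shares were not tested.

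Levels of single genes are compared as CPM per kilobase of coding sequence, scaled within each experiment. In the wild-type total RNA libraries the highest levels were those of Hist1h1a, which encodes linker histone H1.1, at 4578 ± 886, and of Hist3h2a, an H2A gene outside the large cluster, at 3342 ± 622 (SD, n = 5). Hist1h1c, the gene of H1.2, followed at 2531 ± 343, Hist1h2ba at 2452 ± 491 and Hist1h2aa at 2423 ± 391. Hist1h1c, Hist1h2ba and Hist1h2aa did not differ beyond their spread. Hist3h2a overlapped within the SDs with Hist1h1a above it and with these genes below it. In each wild-type library, however, Hist1h1a stood above Hist3h2a, and Hist3h2a above Hist1h1c, Hist1h2ba and Hist1h2aa. In the oil control mRNA libraries the order was another: Hist1h2bp led with 29.1 ± 2.69, followed by Hist1h1a with 26.5 ± 0.55, Hist1h2ba with 25.0 ± 0.06, Hist1h4d with 23.5 ± 3.48 and Hist1h4a with 17.2 ± 2.17 (SD, n = 2). Of these, Hist1h2bp and Hist1h1a did not differ beyond their spread, and Hist1h4d did not differ beyond its spread from Hist1h2bp, Hist1h1a or Hist1h2ba. The choice of length bears on both orders, because exon models can be longer than the coding sequence. They hold 2146 bases for Hist3h2a (coding 393), 1560 for Hist1h1c (coding 639) and 1138 for Hist1h4d (coding 312). For Hist1h2aa and Hist1h2ba the lengths are equal, at 390 and 384 bases. Levels per exon length are not given here. The median of the 67 coding members was 161 in the wild-type total RNA libraries and 1.04 in the oil controls. Across the 58 members with a level in both, Spearman's rho between the kits was 0.675 as a description; the members share libraries and, in part, reads.

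**Figure D2:**
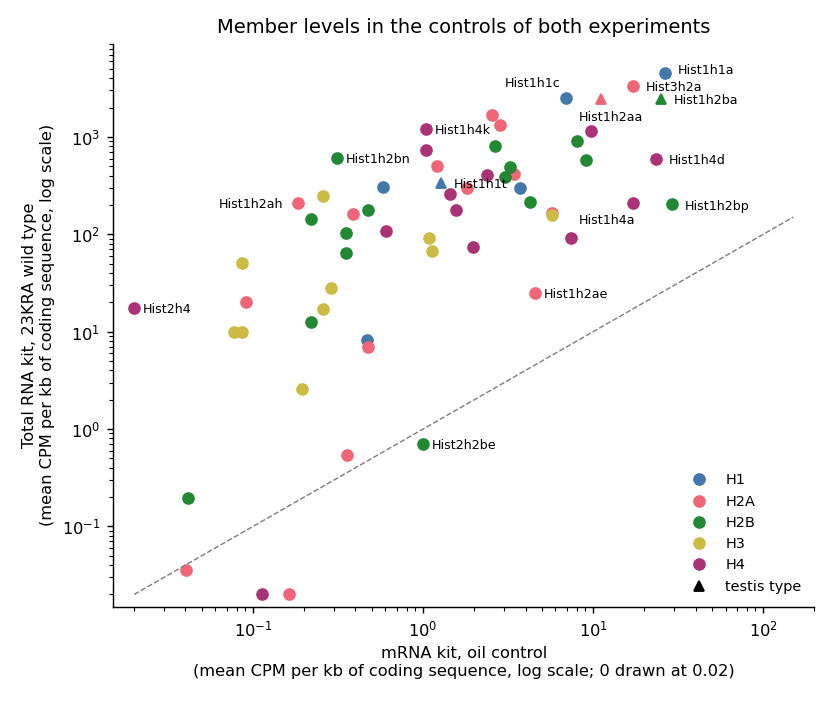
Mean level of each coding member in CPM per kilobase of coding sequence, total RNA kit (23KRA wild type, vertical) against mRNA kit (oil control, horizontal), both on log axes and each scaled within its experiment. Nearly all members lie above the dashed line of equality, and Hist2h2be and a few members near 0 lie below it; Hist1h2bp, Hist1h4a and Hist1h2ae lie right of the main cloud and Hist1h2bn and Hist1h2ah left of it.

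Hist1h1a had 2139, 3309, 2672, 3607 and 2969 CPM in the wild-type total RNA libraries, against 16.8 and 17.3 CPM in the oil controls. Hist3h2a had 980.3, 1544, 1251, 1565 and 1227 CPM, against 6.52 and 6.93 CPM. Hist1h1c had 1341, 1864, 1574, 1811 and 1496 CPM, against 3.79 and 5.02 CPM. For all these genes the groups stood apart by more than 100-fold.

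Members of high level in the H4, H2B and H3 classes were likewise higher with the total RNA kit. Hist1h4c, an H4 gene, had 255, 428, 321, 406 and 371 CPM in wild-type total RNA and 3.22 and 2.80 CPM in oil control libraries, a log2 fold change of 7.33 ± 0.27. Hist1h2bm, the H2B gene with the highest level after Hist1h2ba in the total RNA libraries, had 282, 387, 284, 416 and 342 CPM in wild-type total RNA and 2.44 and 3.65 CPM in oil control libraries, a log2 fold change of 7.24 ± 0.27. The groups did not overlap in either gene. Among H3 genes, Hist1h3b had 70.6, 149, 88.6, 117 and 85.9 CPM in wild-type total RNA, against 0.213 and 0 CPM in the oil controls. Hist1h3a had 43.3, 76.5, 49.5, 84.8 and 66.8 CPM, against 2.09 and 2.64 CPM, a log2 fold change of 5.20 ± 0.35. The leading H3 gene thus differed between the kits.

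In the joint fit, 57 of the 69 members passed the filter on low counts, and 55 were higher in the wild-type total RNA libraries than in the oil controls at an adjusted p under 0.05 and more than 2-fold (edgeR quasi-likelihood test, Benjamini-Hochberg adjustment). Over all genes 15.3% were called higher and 13.2% lower; no member was called lower by edgeR, and none had an unadjusted p under 0.05 in that direction. Many members pass the filter only through their total RNA counts, so the count over members that passed is not independent of the difference. Of the 36 tested members that pass the filter in the mRNA libraries alone, an alternative added after the data were seen, 35 were called higher. Over all 69 members, 56 had every wild-type library above both oil controls, as had 17.9% of the 24984 genes listed. In the mutant libraries, 56 of 59 tested members were called higher in homozygous total RNA than in deleted mRNA libraries and 0 lower, beside 15.2% higher and 14.1% lower over all genes; again no member had an unadjusted p under 0.05 below 0. With library totals alone as scaling, all genes split into 1561 higher and 3799 lower in the controls, in place of 2501 and 2167, and the median of all genes moved to -0.52 from -0.063 on the log2 scale, while 54 members were still called higher.

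The 12 members not tested in the controls were the 6 listed at 0 everywhere together with Hist1h2ao, Hist1h2bh, Hist1h4m, Hist2h2aa2, Hist2h2ab and Hist2h2be. Hist2h2be, an H2B gene whose annotated 3′UTR holds a polyadenylation signal near its end and no stem-loop, stood out among them. It had 0 to 11 counts in the wild-type total RNA libraries, against 7 and 16 in the deeper oil control libraries, and 0 to 19 in homozygous total RNA against 16 and 18 in deleted mRNA libraries. In the mutant libraries its log2 fold change between kits was -0.21 ± 1.56 (SE, adjusted p = 0.929, edgeR), the lowest of the 59 members.

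**Figure D3:**
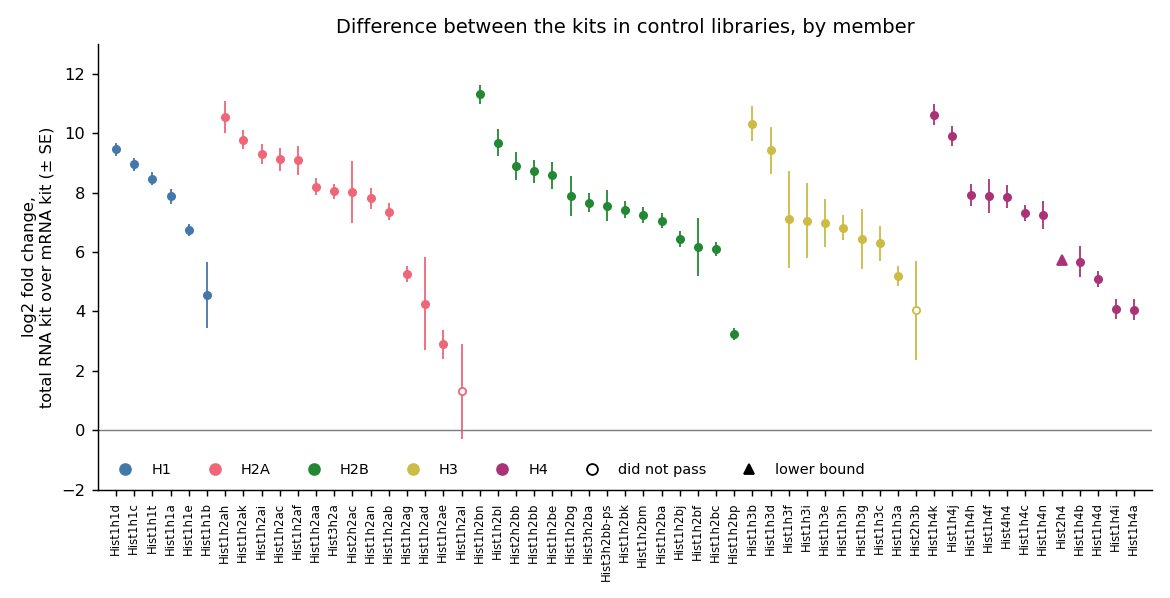
Log2 fold change of the 57 tested members, wild-type total RNA over oil control mRNA libraries, with standard errors from edgeR, ordered within each class. Open circles did not pass and the triangle is the lower bound of Hist2h4; the values span 1.31 for Hist1h2al to 11.31 for Hist1h2bn.

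The size of the kit difference varied widely between members. Hist1h2bn had 182, 250.1, 246, 279 and 211 CPM in wild-type total RNA and 0.142 and 0.0953 CPM in oil control libraries, a log2 fold change of 11.31 ± 0.32 (SE). Next came the H4 gene Hist1h4k with 10.62 ± 0.35, the H2A gene Hist1h2ah with 10.54 ± 0.55 and the H3 gene Hist1h3b with 10.32 ± 0.60. Hist1h4j at 9.89, Hist1h2ak at 9.78 and Hist1h2bl at 9.68 completed the upper end, with adjusted p of 1.64e-07 or lower for each of these 7 genes (edgeR). Hist2h4 cannot be placed in this order. It had 36 to 141 counts in the wild-type total RNA libraries and 0 in the oil controls, so it was at least 53.6-fold higher against a floor of 3 counts per library, a lower bound of 5.74 on the log2 scale.

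At the other end, Hist1h2bp had 73.2, 87.9, 96.4, 94.8 and 70.8 CPM in wild-type total RNA and 12.9 and 11.3 CPM in oil control libraries. Its log2 fold change of 3.24 ± 0.19 (adjusted p = 2.07e-07, edgeR) is small beside that of Hist1h2bn. Hist1h2bp carries the common stem-loop, and no 3′UTR is annotated for Hist1h2bn. The gene model of Hist1h2bp has a spliced form, and a transcript of it holds a polyadenylation signal near its end. Hist1h2ae had 11.4, 12.1, 10.4, 9.76 and 5.70 CPM in wild-type total RNA and 1.42 and 2.16 CPM in oil control libraries, a log2 fold change of 2.90 ± 0.49. The H4 genes Hist1h4a and Hist1h4i differed by 4.06 ± 0.35 and 4.08 ± 0.33, and the H1.5 gene Hist1h1b by 4.55 ± 1.11. Hist1h2al, at under 2 CPM in all libraries, gave 1.31 ± 1.59 (adjusted p = 0.561), and Hist2h3b 4.04 ± 1.67 (adjusted p = 0.0733; edgeR for both). Hist1h2ad gave 4.27 ± 1.55 (adjusted p = 0.0458, edgeR), a call that ended under 8 alternatives. Its adjusted p was 0.0961 without wild-type replicate 3, 0.0822 without wild-type replicate 4, 0.123 without oil control replicate 1 and 0.198 without oil control replicate 2 (edgeR). Hist2h3b was called by DESeq2 and limma-voom.

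Members with and without an annotated stem-loop both showed the difference. The 18 tested members whose transcripts end at most 100 bases after the loop had log2 fold changes of 3.24 to 10.32, the 20 whose transcripts run on further 2.90 to 9.89, the 5 with a 3′UTR but no loop 4.04 to 10.54, and the 14 with no annotated 3′UTR 1.31 to 11.31. A polyadenylation signal (AATAAA) stood in the last 50 bases of a transcript of 14 members, and the 10 of these that were tested spanned 2.90 to 9.89. Hist2h4 entered the ranges that hold it at its bound. These ranges overlap, and they count only members that passed the filter. The 5 without a loop include Hist1h2af and Hist1h2ah, whose annotated 3′UTRs of 1 and 2 bases could not hold one. Hist1h2ah gives that group's upper end of 10.54, and Hist2h3b, at its lower end, was not called. Hist1h1a, whose annotated 3′UTR has no loop in 48 bases, differed by 7.87 ± 0.25. The 8 tested members with under 20% unique 50-base words had a median of 8.56 and the other 49 of 7.36; the 19 that share exon bases with another gene had a median of 8.02 and the other 38 of 7.29, with Hist2h4 at its bound.

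Genes around the histone mRNA pathway did not share the difference. Of 17 tested genes of histone mRNA 3′ processing and turnover, 2 were called higher with the total RNA kit (Casp8ap2 and Srrt) and 2 lower (Lsm10 and Lsm1), with a median log2 fold change of 0.31. Of 8 histone gene transcription factors and cell cycle regulators, Pou2f1, whose protein binds the octamer element, was higher and Cdk2 lower. Of 12 chaperones and deposition factors, 4 were higher (Supt16 3.48, Chaf1a 1.90, Nasp 1.84 and Npm1 1.37) and Asf1a and Asf1b lower. Of 20 DNA replication genes 1 was higher (Pole) and 3 lower (Rrm2, Rfc3 and Rfc4), with a median of 0.081, beside 7.42 for the members, with Hist2h4 at its bound, and -0.063 for all genes. The DNA replication genes summed to 3497 to 3820 CPM in wild-type and 4484 to 4548 CPM in oil control libraries.

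Of the 14 tested variant histone genes 2 were called higher with the total RNA kit and 5 lower, with a median of -0.46. The larger of the 2 was H2afx, a variant gene known to make both a stem-loop and a polyadenylated mRNA, with 1103 ± 190 CPM in wild-type total RNA and 47.4 ± 6.41 CPM in oil control libraries in the joint scaling. Its log2 fold change was 4.54 ± 0.21 (adjusted p = 4.01e-08, edgeR). The 5 that were lower were H2afv, H3f3b, Cenpa and the spermatid genes H1fnt and Hils1.

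Among cell markers, spermatid genes gave the most calls between the kit groups, with 5 of 8 lower in the wild-type total RNA libraries and a median log2 fold change of -1.97. Calls were 0 of 8 for differentiating spermatogonia, 1 higher and 1 lower of 7 for undifferentiated spermatogonia, 2 lower of 7 for spermatocytes and 0 of 6 for Sertoli cells. They were 1 higher of 5 for Leydig cells (median -1.62), 0 of 5 for macrophages, and 1 higher of 4 for peritubular and endothelial cells, where all 4 lay above 0 with a median of 2.40. The part of these in the members' difference was not tested.

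The testis types were among the most abundant members. Hist1h2ba had 714, 1121, 809.8, 1143 and 921 CPM in the wild-type total RNA libraries, against 9.60 and 9.57 CPM in the oil controls. Hist1h2aa had 759, 1103, 840.4, 1094 and 928 CPM, against 3.15 and 5.50 CPM. Hist1h1t was lower, with 205, 208, 252, 213 and 181 CPM, against 0.709 and 0.890 CPM. The log2 fold changes between kits were 7.06 ± 0.25 for Hist1h2ba, 8.20 ± 0.29 for Hist1h2aa and 8.47 ± 0.23 for Hist1h1t, with adjusted p of 7.42e-09 or lower (edgeR). Together they made up 15.1 ± 0.62% of member counts in wild-type total RNA and 13.9 ± 1.43% in oil control libraries (SD, n = 5 and n = 2).

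Hist1h2aa and Hist1h2ba are a divergent pair, read in opposite directions from 305 bases between their models, so their upstream sequences overlap. These are shown because their promoter is a shared one, with 1 octamer element (ATTTGCAT on one strand, ATGCAAAT on the other), the site bound by octamer factors in H2B promoters, in capitals. The sequences are the 250 bases before each start in RefSeq's GRCm38.p6 annotation, 5′ to 3′ in the direction of the named gene.
Hist1h2ba (chr13:23934157-23934406, minus strand): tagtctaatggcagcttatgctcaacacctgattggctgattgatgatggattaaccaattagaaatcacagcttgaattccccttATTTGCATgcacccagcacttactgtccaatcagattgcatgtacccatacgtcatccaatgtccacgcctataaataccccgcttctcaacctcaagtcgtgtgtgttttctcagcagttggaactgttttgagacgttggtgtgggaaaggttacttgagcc
Hist1h2aa (chr13:23934187-23934436, plus strand): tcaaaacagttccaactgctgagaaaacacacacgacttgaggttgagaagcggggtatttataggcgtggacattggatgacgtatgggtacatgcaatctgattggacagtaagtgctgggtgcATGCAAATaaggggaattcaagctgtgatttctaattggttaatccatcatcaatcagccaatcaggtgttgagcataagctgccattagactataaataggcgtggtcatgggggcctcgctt

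The octamer begins at position -164 from the start of Hist1h2ba and at -124 from that of Hist1h2aa. In windows of 250 bases before to 50 after the start, 61 members matched a RefSeq promoter. The octamer, on either strand, stood in 7 of 17 H2A and 7 of 16 H2B promoters and in none of the 6 H1, 10 H3 or 12 H4 promoters, beside 1.97% of 27025 genes. Windows of divergent pairs overlap, so the same site can count for both genes, as for Hist1h2aa and Hist1h2ba and for Hist1h2ae and Hist1h2bg. The H2A and H2B counts are therefore not counts of separate sites. CCAAT, on either strand, stood in every H1, H2A, H2B and H3 promoter but in 3 of 12 H4 promoters, beside 41.1% of genes. TATAAA, on either strand, stood in 57.4% of member promoters and in 15.7% of all genes. A match is a description of letters and not a measured site.

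The pair's levels moved together from library to library with the total RNA kit. Hist1h2aa ranged from 1946 to 3678 and Hist1h2ba from 1860 to 3705 CPM per kilobase of coding sequence over those 10 libraries. This was not particular to the pair, because the members moved together over these libraries. Hist3h2a on chromosome 11 was, like both genes, lowest in wild-type replicate 1 (2494) and highest in homozygous replicate 2 (4373). Per kilobase of coding sequence, Hist1h2aa over Hist1h2ba was 1.00, 0.993, 1.02, 0.960 and 0.948 in the homozygous libraries and 1.05, 0.969, 1.02, 0.942 and 0.992 in the wild-type libraries. With the mRNA kit the ratio was 0.342 and 0.414 in the deleted and 0.323 and 0.566 in the oil control libraries. All 10 total RNA libraries lay near 1 and all 4 mRNA libraries below them. Of 14 divergent member pairs within 1000 bases, 13 join an H2A to an H2B gene, 172 to 305 bases apart, and others were less even. Hist1h2ak over Hist1h2bn was 2.45 to 3.11 over the 10 total RNA libraries, Hist1h2ag over Hist1h2bj 0.224 to 0.388, and Hist1h2ai over Hist1h2bl 7.27 to 13.4. Hist1h2an over Hist1h2bp was 1.20 to 1.80 with the total RNA kit, but 0.0505 and 0.0677 in the deleted and 0.0535 and 0.0698 in the oil control libraries. How overlapping and shared reads were counted bears on these ratios. Hist1h2aa and Hist1h2ba have 97.7% and 61.8% unique words.

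**Figure D4:**
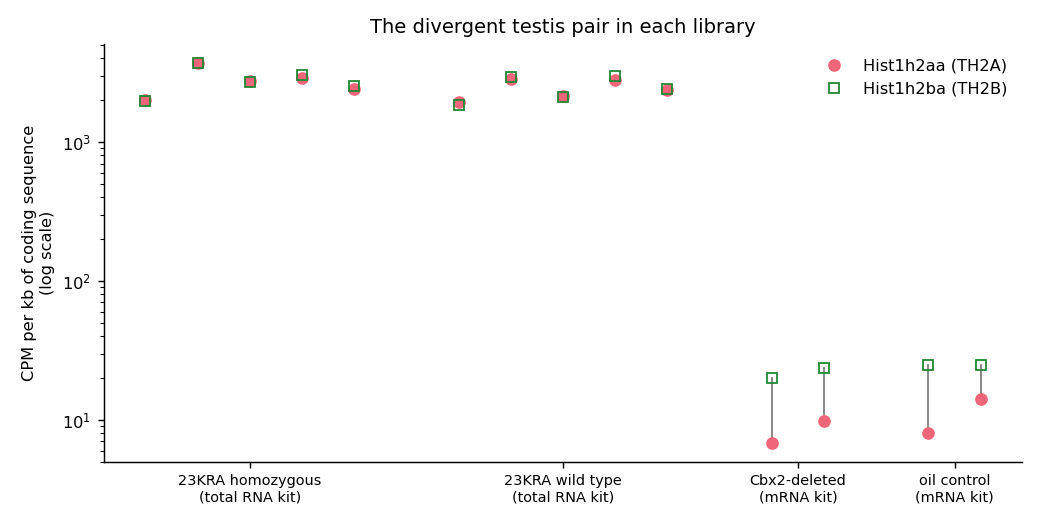
Level of Hist1h2aa (filled circles) and Hist1h2ba (open squares) in each library, in CPM per kilobase of coding sequence on a log axis, grouped by genotype and kit. The symbols coincide in all 10 total RNA libraries and stand apart in all 4 mRNA libraries, with Hist1h2aa lower.

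The 23KRA experiment asks which genes change when the CaPS domain of Cbx2 carries these substitutions. No histone gene was called. The members' summed level was 12008, 17956, 15417, 17064 and 14199 CPM in the homozygous libraries and 10576, 15815, 13369, 16570 and 13320 CPM in the wild-type libraries. The groups overlap over most of their range, and the ratio of means was 1.10. The sum was higher in the homozygous library in 5 of 5 same-numbered pairs, though the numbers were not taken as pairs here. The class sums gave ratios of 1.08 for H1, 1.11 for H2A, 1.12 for H2B, 1.10 for H3, 1.10 for H4 and 1.13 for the testis types, all with overlapping groups.

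Of the 57 members tested, 0 were called in either direction (edgeR quasi-likelihood test, Benjamini-Hochberg adjustment), as were 0% of 14208 genes. Without adjustment 1 member (1.75%) had p under 0.05 by edgeR, 1 by DESeq2 and 6 by limma-voom, and neither of those tools called a member either. Over all genes 432 (3.04%) had such a p by edgeR, 524 by DESeq2 and 537 by limma-voom. Log2 fold changes were above 0 in 52 members and below 0 in 5, with a median of 0.17, beside 7223 of 14208 genes above 0 and a median of 0.0034. The members move together from library to library, so this excess on 1 side is not a count of separate observations. Without wild-type replicate 1 the median was 0.072, without homozygous replicate 2 it was 0.099, and without homozygous replicate 4 it was 0.10.

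The smallest p was that of Hist1h2ag, an H2A gene, with 62.4, 83.1, 81.6, 89.96 and 94.98 CPM in homozygous and 51.6, 57.2, 69.2, 82.7 and 61.5 CPM in wild-type libraries. The groups overlap, and its log2 fold change of 0.35 ± 0.14 did not pass (adjusted p = 1.00, edgeR). Hist1h4f gave 0.41 ± 0.20, Hist1h2bc 0.26 ± 0.13 and Hist1h3c 0.48 ± 0.24, and none of these passed. Below 0, the 4 of smallest p were Hist1h2bf with -0.40 ± 0.53, Hist1h2al with -0.86 ± 1.14, Hist1h2af with -0.08 ± 0.16 and Hist2h4 with -0.14 ± 0.45. Hist1h1a differed by 0.16 ± 0.11, Hist3h2a by 0.13 ± 0.12, Hist1h2aa by 0.18 ± 0.12, Hist1h2ba by 0.19 ± 0.13 and Hist1h1t by 0.04 ± 0.09. Spermatid markers lay on the other side of 0 from most members, with 0 of 8 called, all 8 below 0 and a median of -0.27, and sums of 241 to 1118 CPM in homozygous and 293 to 1117 CPM in wild-type libraries. Their part in the members' values was not tested.

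The deletion experiment asks which genes change after tamoxifen-induced deletion of Cbx2. Here too no histone gene was called, and the member counts behind each library were 2604 to 2710 in deleted and 2952 to 3371 in oil control libraries. The members summed to 91.5 and 94.5 CPM in the deleted libraries, against 104.6 and 107 CPM in the oil controls. The groups did not overlap, and the ratio of means was 0.879. No test is given for this sum over the members. The sums of H1, H2A, H2B and H4 were lower without overlap (ratios of 0.846, 0.841, 0.901 and 0.894), those of H3 overlapped (1.01), and the testis types had a ratio of 0.808. For H4 the groups nearly met, at 18.06 and 19.84 CPM in deleted against 22.50 and 19.89 CPM in oil control libraries. Groups of 2 libraries separate easily, and the share of all genes that separate in this way was not computed.

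Of 37 members tested, 0 were called in either direction by edgeR, DESeq2 or limma-voom, where 0.012% of 16725 genes were called by edgeR. Without adjustment 1 member (2.70%) had p under 0.05 by edgeR, 1 by limma-voom and 0 by DESeq2. Over all genes 793 (4.74%) had such a p by edgeR, 801 by limma-voom and 399 by DESeq2. Log2 fold changes were below 0 in 28 members and above 0 in 9, with a median of -0.21, beside a median of -0.0044 over all genes. Without deleted replicate 1 the median was -0.12, and without deleted replicate 2 or oil control replicate 2 it was -0.13. Markers of round and elongating spermatids lay on the same side, with 0 of 8 called, all 8 below 0, a median of -0.19 and sums of 2689 and 3116 CPM in deleted against 3112 and 3421 CPM in oil control libraries. Spermatocyte markers did not, with 0 of 7 called, 4 above 0, 3 below 0 and a median of 0.033. Their sums were 3272 and 2955 CPM in deleted against 2953 and 2806 CPM in oil control libraries. The part of either marker list in the members' lower sum was not tested.

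The member with the smallest p was Hist1h1t, the testis linker histone, with 12 and 4 counts (0.422 and 0.139 CPM) in deleted and 20 and 28 counts (0.709 and 0.890 CPM) in oil control libraries. The groups did not overlap, but its log2 fold change of -1.50 ± 0.58 did not pass (adjusted p = 0.971, edgeR). Hist1h4b followed with -1.20 ± 0.60, from 6 and 9 counts in deleted and 21 and 15 in oil control libraries, then Hist1h2bj with -0.42 ± 0.25 and Hist1h1e with -0.48 ± 0.30. Above 0, the 4 of smallest p were Hist1h4k with 0.71 ± 0.60, Hist2h2be with 0.63 ± 0.56, Hist1h3c with 0.54 ± 0.52 and Hist1h4c with 0.22 ± 0.25. The most abundant members gave smaller values: Hist1h1a had 14.8 and 14.6 CPM in deleted and 16.8 and 17.3 CPM in oil control libraries, a log2 fold change of -0.21 ± 0.15. Hist1h2bp differed by -0.18 ± 0.16, Hist1h2ba by -0.20 ± 0.17, Hist1h2aa by -0.42 ± 0.26, Hist3h2a by -0.17 ± 0.19 and Hist1h4d by -0.33 ± 0.21, and none of these passed.

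**Figure D5:**
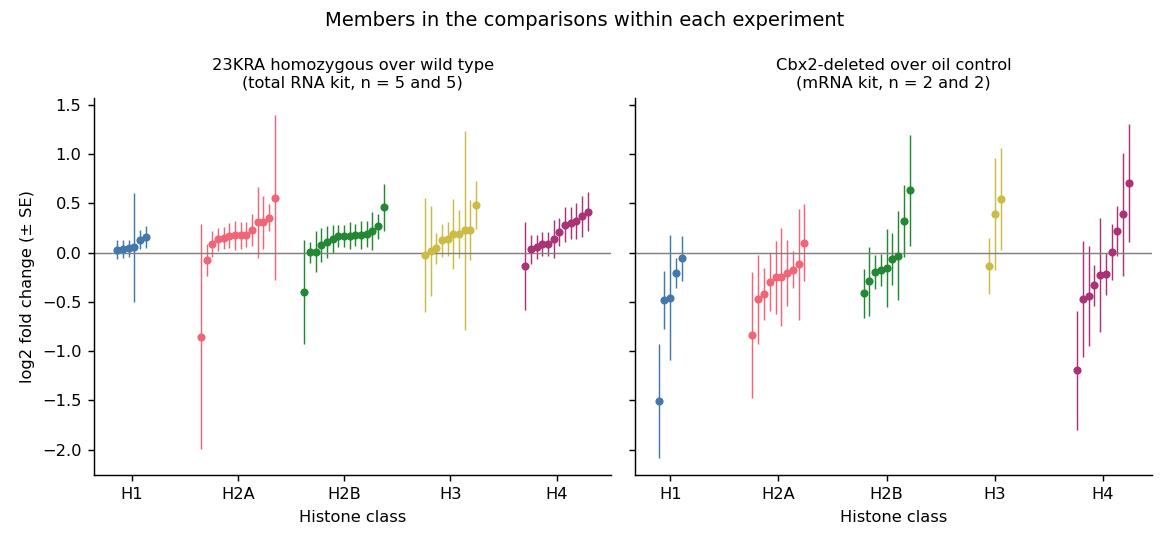
Log2 fold changes of tested members by class with standard errors from edgeR, 23KRA homozygous over wild type (57 members, left) and Cbx2-deleted over oil control (37 members, right). No member passed in either panel; most values lie above 0 on the left and below 0 on the right, mostly within 1 or 2 standard errors.

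The difference between these effects was tested as an interaction in a joint fit, which sets the 23KRA effect against the deletion effect. Of 59 members tested, 0 were called (edgeR quasi-likelihood test, smallest adjusted p = 1.00), as were 0% of 17227 genes. Without adjustment 6 members (10.2%) had p under 0.05, beside 112 genes (0.65%), and the median difference was 0.36 on the log2 scale for the members and 0.020 for all genes. The members move together from library to library, so these 6 are not separate observations. The share of all genes was itself far below the threshold of 0.05, which makes it a weak baseline. Within each experiment none of the 5 pathway lists had a called gene: 0 of 17 for 3′ processing and turnover, 0 of 8 for histone gene transcription, 0 of 12 for chaperones, 0 of 20 for DNA replication and 0 of 14 for variant histones. Their medians lay between -0.039 and 0.055. Of the cell marker lists, 1 gene was called, the Leydig cell enzyme gene Cyp17a1, lower in deleted than in oil control libraries (1.66 ± 0.28 CPM in deleted and 6.07 ± 1.84 CPM in oil control libraries, log2 fold change -1.86 ± 0.26, adjusted p = 0.00315, edgeR). The sums of DNA replication genes, which mark cells in S phase, were 3571 to 3906 CPM in homozygous and 3497 to 3820 CPM in wild-type libraries, and 4571 and 4738 CPM in deleted and 4484 and 4548 CPM in oil control libraries.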

How the data were processed

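The authors deposited raw read counts per gene, 1 table for each experiment. The submitters' processing notes name STAR 2.5.3 as well as Trim Galore 0.4.3; they also list featureCounts (Subread 1.5.0), SAMtools 1.4.1 and the build mm10. Which annotation was counted, whether by strand, and how multiply mapped reads were treated is not given there. The protocols name as many animals as there are libraries, so a library was taken as 1 animal.

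Counts were analysed in R 4.3.3 with edgeR 4.0.16 (filterByExpr, TMM factors, two-sided quasi-likelihood test, Benjamini-Hochberg adjustment over all genes at 0.05); limma 3.58.1 and DESeq2 1.42.0 gave alternatives. Each experiment was fitted alone, and the tables were joined by symbol for the kit comparison, which also asked for more than 2-fold. The standard error is the log2 fold change divided by the square root of F. CPM use TMM-scaled library sizes. Members were matched to GENCODE M21 (69 of 69) with Python 3.11.15. The tests were checked on simulated data. Other alternatives were other scalings, no filter or a 5 CPM filter, a replicate block, and leaving out each library.

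Members, gene lists and rules were chosen with earlier results of these data known. Named were the testis types, the 2 members of highest level per class and kit, the 8 highest and 8 lowest kit differences, members of smallest p, and members at 0. Where fewer passed, the 4 of smallest p on each side are given as not passed. Hist2h2be in the kit comparison and the divergent pairs other than the testis pair were picked after their values were seen.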

Additional observations from a re-analysis of the deposited data

Results flagged for a closer look

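In 1 of 88 groups of 5 libraries examined, a member's highest or lowest level lay far from the other libraries; chance alone flags about 1 in 20 such groups. It was Hist2h2be, which had 1.31 CPM in homozygous replicate 3 against 0 to 0.330 CPM in the other 4 homozygous libraries. The value rests on 19 counts.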

How the results depend on the processing

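Under every other scaling, filter, tool, block and left-out library, 0 members were called in the deletion and 0 in the 23KRA comparison, and 53 to 57 were called higher and 0 lower between kits, except that 35 were called where members had to pass the filter in the mRNA libraries alone. The median of deleted over oil control members was -0.20 with DESeq2 size factors, -0.22 with library totals, -0.19 with no filter, -0.20 at 5 CPM (5 members), -0.19 with DESeq2, -0.20 with limma-voom and -0.20 with the replicate block, and -0.25 to -0.12 with 1 library left out. With the fitted value of Hist2h4 included, the median kit difference in controls was 7.56, and it was 7.11 with library totals and 7.30 with no filter, and in mutants 7.47 with library totals, 8.15 at 5 CPM, 8.16 with DESeq2 and 7.64 to 8.18 with 1 library left out; the cause of these shifts was not tested. The members' summed log2 ratio ranged from 0.054 to 0.21 in 23KRA and from -0.21 to -0.16 in the deletion with 1 library left out.

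Same-numbered libraries had correlations of 0.061, 0.23, -0.018, 0.097 and 0.25 in 23KRA, and libraries of different number -0.25 to 0.074. In the deletion these were 0.22 and -0.22, which mirror each other with 2 libraries per group. In 23KRA the same-numbered values of 0.23, 0.097 and 0.25 lay above every value for libraries of different number, while 0.061 and -0.018 did not. The main fits did not take the numbers as pairs. Whether the numbers mark pairs was not settled. With the replicate block, 22 members had an unadjusted p under 0.05 in 23KRA and 0 passed adjustment, and the median was 0.17. The share of all genes under 0.05 with the block was not computed, so the 22 have no baseline. Over all genes the block gave 1 call higher and 1 lower in 23KRA, in place of 0 and 0. In the deletion it changed the calls to 33 higher and 29 lower, in place of 1 and 1. Between kits the block left 54 members higher in controls and 55 in mutants. Hist1h2ad in controls and Hist2h3b in mutants lost their calls under several alternatives, with adjusted p up to 0.353 and 0.232. Depth limits the deletion comparison, where 58 of 69 members had under 100 counts in every library.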
